A study of Homo sapiens with 18 samples.

Results

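The genes of the AP-1 and EGR immediate-early transcription factors were followed in SJSA cells, a human osteosarcoma line, under an MDM2 antagonist and a CDK4/6 inhibitor. The group was chosen by symbol. It holds 4 Fos genes (FOS, FOSB, FOSL1, FOSL2), 3 Jun genes (JUN, JUNB, JUND) and 3 EGR genes (EGR1, EGR2, EGR3), and all 10 were found among the 23368 gene rows. RNA of SJSA cells was sequenced in 18 libraries, 3 replicates for each of 6 conditions. The conditions were DMSO as solvent control, Nutlin at 20 µM for 6 h, PD0332991 (Palbociclib) at 10 µM on a 24 h schedule (PD24) or a 30 h schedule (PD30), and Nutlin with each PD0332991 schedule (N+PD24, N+PD30). In the study's scheme the PD24 cells had no PD0332991 over the last 6 h, while the PD30 cells kept it until harvest, and Nutlin was given in those last 6 h. Nutlin blocks the binding of MDM2 to p53, and PD0332991 blocks the kinases that drive cells out of G1. All groups share this 1 cell line, which carries amplified MDM2 and CDK4, so no value speaks for cells without these amplifications. The study describes the replicates as biological triplicates, and the labels number them without saying what was separate (culture, day or treatment), so p-values measure the spread between these libraries. In bulk RNA, fewer cells with a transcript and less of the transcript per cell cannot be told apart.

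AP-1 is a dimer of a Jun protein with a Fos protein or with another Jun protein, and it binds a short palindrome in promoters and enhancers. FOS, FOSB, JUN, JUNB, EGR1, EGR2 and EGR3 are classical immediate-early genes: growth factors, serum or stress switch them on within minutes through the ERK and JNK kinases and through serum response factor (SRF), without new protein. FOSL1 (Fra-1), FOSL2 (Fra-2) and JUND answer more slowly or are expressed steadily, and AP-1 proteins shape proliferation, matrix remodelling and differentiation in bone cells and osteosarcoma.

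The libraries behaved as their labels said. CDKN1A, the p53 target that encodes p21, was higher in Nutlin than in DMSO by 4.56 ± 0.16 on the log2 scale (SE; edgeR adjusted p = 1.65e-07), and PD30 against DMSO gave -7.06 for the proliferation gene MKI67. Of 10 osteoblast lineage markers, 7 had a mean of at least 1 CPM (CPM is a gene's count scaled to a common library size), with a summed level of 2877 to 6505 CPM per library. Of 8 markers of other cell types, 1 passed that level, and their summed level was 1.31 to 6.69 CPM. The albumin gene ALB, from this list, was higher in Nutlin than in DMSO by 7.39 on the log2 scale (edgeR adjusted p = 3.62e-06). The part of such markers in the results was not tested. Total counts per library ran from 12704845 to 40231041.

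Promoter sequences are shown for EGR1, JUN and JUND, since each holds a motif of a known signal-responsive factor and the levels of the 3 genes ordered the conditions differently. They were read from RefSeq (GRCh38.p14), which gave a promoter for 8 of the 10 members. Each run is the 250 bases before the annotated start, 5′ to 3′ on the gene's strand. Capitals mark CArG boxes (the core that SRF binds) in EGR1, an AP-1 site variant TGACATCA in JUN and a cyclic AMP response element TGACGTCA in JUND. The 3 windows are chr5:138465229-138465478 (plus strand), chr1:58784048-58784297 (minus strand) and chr19:18281623-18281872 (minus strand).
EGR1: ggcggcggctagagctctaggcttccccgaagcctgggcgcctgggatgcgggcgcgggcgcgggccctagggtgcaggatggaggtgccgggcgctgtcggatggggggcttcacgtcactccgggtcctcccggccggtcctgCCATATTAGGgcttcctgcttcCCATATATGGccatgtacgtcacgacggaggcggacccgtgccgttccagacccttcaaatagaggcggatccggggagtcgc
JUN: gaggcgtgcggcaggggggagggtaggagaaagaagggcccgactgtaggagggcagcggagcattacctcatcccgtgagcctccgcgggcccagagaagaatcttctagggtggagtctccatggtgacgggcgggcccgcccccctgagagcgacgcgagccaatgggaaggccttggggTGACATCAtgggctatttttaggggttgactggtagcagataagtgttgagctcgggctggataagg
JUND: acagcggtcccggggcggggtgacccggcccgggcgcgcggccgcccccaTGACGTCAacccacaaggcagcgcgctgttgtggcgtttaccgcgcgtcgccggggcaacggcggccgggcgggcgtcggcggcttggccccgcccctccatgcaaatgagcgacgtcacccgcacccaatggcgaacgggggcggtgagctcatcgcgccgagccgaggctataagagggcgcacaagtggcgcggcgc

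Letters were searched on both strands of the window that runs from 250 bases before the start to 50 bases after it, and 35116 promoters of that length served as the background. The CArG box was found in 1.29% of them and, among the 8 members with a promoter, in EGR1 and EGR2. Members without a promoter were not searched, and a motif outside the window would be missed. In EGR1 the boxes lay at positions -105 and -83 from the start. TGACATCA was in 2.61% of all promoters and in JUN alone among those 8 members, at -67. TGACGTCA was in 1.85% and in JUND alone, at -200. The AP-1 site TGANTCA was in 7.71% and only in FOSL2, the EGR site GCGNGGGCG in 9.43% and in EGR1 and EGR2, and the SP1 box GGGGCGGGG in 15.7% and in JUND and EGR2. The p53 half-site was in 6.63% of promoters and in none of the windows of those 8 members. None of the matches marked in capitals overlaps another motif searched. These matches describe letters in a window and no binding.

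On GRCh37, the build of the deposited counts, the Jun genes lie at chr1:59242517-59249720 (JUN), chr19:12902300-12904129 (JUNB) and chr19:18390504-18392432 (JUND). FOS lies at chr14:75745529-75748933, FOSB at chr19:45971253-45978437, FOSL1 at chr11:65659520-65668044, FOSL2 at chr2:28615315-28640184 and EGR1 at chr5:137801168-137804992. JUNB shares exon sequence with HOOK2, on the opposite strand. The spans of FOSB and FOSL2 overlap ERCC1 and FOSL2-AS1, also on the opposite strand, without shared exon sequence, and EGR2 and EGR3 share exon sequence with unnamed non-coding genes. The authors counted with a reverse-strand setting, but the kit is not stated to keep the strand. Without that, reads of such partners cannot be told apart.

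Per kilobase of exon, FOSL1 was the highest member in DMSO, at 68.1 ± 12.5 CPM per kb (SD, n = 3). JUN followed at 20.5 ± 4.06, FOSL2 at 8.81 ± 1.35, JUNB at 7.82 ± 4.77 and JUND at 4.20 ± 1.44 CPM per kb. The factors that serum induces most sharply were far lower: EGR1 at 0.635 ± 0.174, FOS at 0.562 ± 0.10, FOSB at 0.519 ± 0.115, EGR2 at 0.0546 ± 0.0165 and EGR3 at 0.0294 ± 0.0163 CPM per kb. Neighbours in that order from FOSL2 to JUND, from EGR1 to FOSB, and EGR2 and EGR3, overlapped between libraries.

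With Nutlin alone, members were called in both directions, as were genes in general. Of 9 members tested, 2 were higher than in DMSO (FOSB, EGR3) and 4 lower (FOS, JUN, JUND, EGR1), against 54.6% of all 15766 genes tested that passed at an edgeR adjusted p under 0.05 in either direction (26.6% higher, 28% lower). The members' median was -0.72 on the log2 scale against 0.03 over all genes. Of all calls 48.7% were higher, and 36.7% with libraries scaled to their total counts, which shifts the median of all genes by -0.13. JUND was no longer called without DMSO replicate 1, Nutlin replicate 1 or Nutlin replicate 3 (highest adjusted p = 0.0991, edgeR).

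PD0332991 alone lowered FOS and EGR1 on both schedules and moved JUN in opposite directions. In PD24, 2 of 8 members tested were higher than in DMSO (FOSB, JUN) and 2 lower (FOS, EGR1), against 38.3% of all genes called by edgeR (17.5% higher, 20.8% lower). In PD30, 4 of 8 were lower (FOS, FOSL1, JUN, EGR1) and 0 higher, against 48.3% of all genes in either direction, 22.9% higher and 25.4% lower. No member rose there at an unadjusted p under 0.05 except JUND, which DESeq2 called (log2 fold change 0.62, adjusted p = 0.0400; edgeR adjusted p = 0.0758). Both comparisons share the DMSO libraries. The call of JUN in PD24 was lost without DMSO replicate 2 or PD24 replicate 1 (highest edgeR adjusted p = 0.0530).

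FOS encodes the archetypal labile Fos protein. Its level in DMSO was 2.15, 1.66 and 1.55 CPM. In PD24 it was 0.815, 0.675 and 0.721 CPM, and in PD30 0.448, 0.445 and 0.426 CPM. In Nutlin it was 0.360, 0.466 and 0.221 CPM. DMSO stood above every library of the other conditions, and PD24 above PD30 and Nutlin. The fall against DMSO was 1.26 ± 0.23 on the log2 scale in PD24 (SE; edgeR adjusted p = 0.00304). It fell by 2.03 ± 0.24 in PD30 (adjusted p = 0.000115, edgeR) and by 2.20 ± 0.31 in Nutlin (adjusted p = 0.00023, edgeR). In N+PD24 the values were 0.492, 0.298 and 0.433 CPM, and in N+PD30 0.945, 0.370 and 0.387 CPM, where replicate 1 rests on 12 reads. FOS passed none of the 6 pairwise tests run between conditions that held a drug. PD24 over PD30 gave 0.78 ± 0.27 (edgeR adjusted p = 0.0592), with groups that did not overlap.

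EGR1 encodes a zinc-finger factor that the same serum signals induce, and its promoter, shown above, holds both CArG boxes. It was at 2.55, 1.46 and 1.97 CPM in DMSO, at 1.09, 0.295 and 0.621 CPM in PD24, at 0.310, 0.361 and 0.568 CPM in PD30 and at 1.05, 0.533 and 0.774 CPM in Nutlin. As with FOS, DMSO lay above all libraries with a drug. The log2 fold changes against DMSO were -1.53 ± 0.39 in PD24 (edgeR adjusted p = 0.0132), -2.26 ± 0.31 in PD30 (adjusted p = 0.000285) and -1.22 ± 0.30 in Nutlin (adjusted p = 0.0068). In N+PD24 it was at 0.615, 0.352 and 0.650 CPM, and in N+PD30 at 0.551, 0.706 and 1.11 CPM. N+PD30 against PD30 gave 1.03 ± 0.36 (edgeR adjusted p = 0.0908), and 1.01 ± 0.27 with the replicate number as a block (adjusted p = 0.0324).

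FOSB, the Fos gene whose short splice form accumulates after repeated stimuli, went the other way from FOS. It was at 3.30, 2.15 and 3.20 CPM in DMSO, 7.98, 7.46 and 6.41 CPM in PD24 and 2.34, 2.39 and 3.46 CPM in PD30. It reached 6.32, 9.13 and 14.6 CPM in Nutlin and 11.6, 18.8 and 19.1 CPM in N+PD24, but 2.44, 3.60 and 6.39 CPM in N+PD30. Nutlin, PD24 and N+PD24 lay above DMSO and PD30 without overlap, while N+PD30 overlapped both controls. The rise was 1.91 ± 0.29 on the log2 scale in Nutlin (edgeR adjusted p = 0.000367) and 1.36 ± 0.20 in PD24 (edgeR adjusted p = 0.000884). PD30 did not pass against DMSO (-0.09 ± 0.23, edgeR adjusted p = 0.765). Nutlin added to PD24 raised FOSB by a further 1.24 ± 0.19 (limma adjusted p = 0.00031, on the log2(CPM + 0.5) scale, which understates changes of low genes). N+PD24 against Nutlin gave 0.81 ± 0.28 (limma adjusted p = 0.0550), and with the replicate block 0.81 ± 0.12 (adjusted p = 8.14e-08). N+PD30 fell below Nutlin by 1.29 ± 0.34 on the log2 scale (edgeR adjusted p = 0.00918). ERCC1, whose span overlaps FOSB, had mean levels of 73.0 to 95.2 CPM and differed by 0.03 to 0.36 on the log2 scale in the fits.

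FOSL1, which encodes Fra-1, was the member with the most reads. It was at 116, 114 and 156 CPM in DMSO, 142, 135 and 145 CPM in PD24 and 60.2, 56.8 and 81.2 CPM in PD30. With Nutlin it was at 95.9, 106 and 158 CPM, with N+PD24 at 131, 112 and 182 CPM and with N+PD30 at 119, 121 and 182 CPM. PD30 lay below all other conditions, and the remaining 5 overlapped. FOSL1 fell by 0.97 ± 0.16 on the log2 scale in PD30 against DMSO (edgeR adjusted p = 0.000755). It was higher in PD24 than in PD30 by 1.13 ± 0.13 (edgeR adjusted p = 0.000719) and higher in N+PD30 than in PD30 by 1.18 ± 0.19 (edgeR adjusted p = 0.00715). Nutlin alone made no difference that passed (0.02 ± 0.18, edgeR adjusted p = 0.916), and total-count scaling turned that value to -0.10.

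FOSL2, which encodes Fra-2, varied least. Its mean levels ran from 55.4 to 65.5 CPM in 5 conditions and reached 42.1 ± 6.58 CPM (SD, n = 3) in N+PD24, the one condition whose 3 libraries lay below all others. It was lower in N+PD24 than in N+PD30 by 0.53 ± 0.13 on the log2 scale (limma log2 fold change -0.53, adjusted p = 0.0129), a call lost without N+PD24 replicate 2 or N+PD30 replicate 2. Against PD24 the limma value was -0.37 ± 0.14 (adjusted p = 0.0497), close to the threshold and lost when any of 5 of the 6 libraries was left out.

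JUN encodes the main Jun partner of AP-1. Its level was 89.9, 60.8 and 71.7 CPM in DMSO, rose to 130.1, 134 and 95.1 CPM in PD24 and was 32.1, 38.6 and 42.8 CPM in PD30. In Nutlin it was 23.6, 29.7 and 48.6 CPM, in N+PD24 43.0, 56.3 and 63.9 CPM and in N+PD30 45.3, 32.0 and 40.5 CPM. PD24 was above every library of the other conditions. PD30, Nutlin and N+PD30 overlapped one another and lay below DMSO. The log2 fold change against DMSO was 0.72 ± 0.18 in PD24 (edgeR adjusted p = 0.0122), -0.99 ± 0.15 in PD30 (adjusted p = 0.000624) and -1.01 ± 0.23 in Nutlin (adjusted p = 0.00401). PD24 exceeded PD30 by 1.70 ± 0.17 (edgeR adjusted p = 0.000381). Nutlin lowered JUN in cells on the PD24 schedule by a like amount (-0.98 ± 0.17, limma adjusted p = 0.000687). In cells on PD30 the difference with Nutlin was 0.14 ± 0.17 (edgeR adjusted p = 0.578). JUN was higher in N+PD24 than in Nutlin (0.80 ± 0.23, limma adjusted p = 0.0299) and than in N+PD30 (0.57 ± 0.17, limma adjusted p = 0.0298). Total-count scaling ended both of these calls (limma adjusted p = 0.0648 and 0.0813). The first was also lost without Nutlin replicate 1 or 2 or N+PD24 replicate 2 or 3 (highest limma adjusted p = 0.103), and the second without N+PD24 replicate 2 or 3 or N+PD30 replicate 2 (highest adjusted p = 0.133).

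JUNB, an AP-1 member that often opposes JUN, varied widely between replicates. It was at 24.2, 10.9 and 7.79 CPM in DMSO, 37.2, 32.6 and 12.7 CPM in PD24 and 5.79, 9.04 and 15.2 CPM in PD30. With Nutlin it was at 4.88, 10.3 and 8.70 CPM, with N+PD24 at 4.59, 6.25 and 13.8 CPM and with N+PD30 at 21.1, 13.9 and 23.5 CPM. N+PD30 lay above Nutlin and N+PD24 without overlap. No comparison of JUNB with DMSO passed. It was higher in N+PD30 than in Nutlin by 1.25 ± 0.27 on the log2 scale (edgeR adjusted p = 0.00328). HOOK2, which shares exon sequence with JUNB, was higher there too, by 0.97 ± 0.19 (edgeR adjusted p = 0.00154), at mean levels of 4.57 CPM in Nutlin and 9.21 CPM in N+PD30, and its part in the JUNB value was not tested. PD24 exceeded PD30 by 1.49 ± 0.42 (edgeR adjusted p = 0.0299; DESeq2 adjusted p = 0.0505). N+PD24 was lower than N+PD30 (limma log2 fold change -1.20 ± 0.33, adjusted p = 0.0205). HOOK2 was lower there as well, by 1.04 ± 0.20 (limma adjusted p = 0.00358). In PD24 against PD30 HOOK2 had -0.51 ± 0.17 (edgeR adjusted p = 0.0506), opposite in sign to JUNB. Both JUNB calls between schedules were lost when single replicates were left out. These were PD24 replicate 1 or 2 or PD30 replicate 1 or 2 without Nutlin (highest edgeR adjusted p = 0.111). With Nutlin they were N+PD24 replicate 1 or 2 or N+PD30 replicate 1 or 3 (highest limma adjusted p = 0.113). The longest JUNB transcript has 64.9% G and C. Genes within 2 percentage points of that had a median log2 fold change of 0.45 in N+PD30 against Nutlin (700 genes). It was 0.29 in PD24 against PD30 (666 genes) and -0.34 in N+PD24 against N+PD30 (707 genes). The part of GC content in the JUNB values was not tested.

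JUND, which encodes the Jun protein linked to quiescence and stress protection, was highest in N+PD30. It was at 11.2, 7.14 and 5.95 CPM in DMSO, 5.84, 6.83 and 3.68 CPM in PD24 and 9.06, 13.3 and 15.2 CPM in PD30. It was at 3.18, 5.26 and 4.31 CPM in Nutlin, 1.60, 3.09 and 3.21 CPM in N+PD24 and 24.1, 25.1 and 21.3 CPM in N+PD30. N+PD30 stood above all 15 other libraries. N+PD30 exceeded Nutlin by 2.43 ± 0.20 on the log2 scale (edgeR adjusted p = 6.38e-06) and PD30 by 1.00 ± 0.20 (edgeR adjusted p = 0.0154, lost without N+PD30 replicate 2). N+PD24 was lower than N+PD30 (limma log2 fold change -2.88 ± 0.22, adjusted p = 5.75e-05) and lower than PD24 (-0.80 ± 0.26, limma adjusted p = 0.0331). The second call was lost without replicate 1 or 2 of PD24 or of N+PD24 (highest limma adjusted p = 0.119). PD24 was lower than PD30 (-1.17 ± 0.27, edgeR adjusted p = 0.0122) and Nutlin lower than DMSO (-0.81 ± 0.26, edgeR adjusted p = 0.0247). The longest JUND transcript has 69.9% G and C. Fold changes moved with the GC content of genes in some comparisons (Pearson r across genes 0.491 in N+PD30 against PD30 and 0.168 in N+PD30 against Nutlin; genes are not independent replicates). Genes within 2 percentage points of the GC content of JUND had a median log2 fold change of 0.89 in N+PD30 against PD30 (82 genes), where JUND had 1.00, and of 0.78 in N+PD30 against Nutlin (89 genes), where JUND had 2.43. In PD24 against PD30 their median was 0.39 (78 genes), opposite in sign to JUND. In N+PD24 against N+PD30 it was -0.47 (88 genes), where JUND had -2.88 and the r across genes was -0.191. The part of GC content in the JUND values was not tested.

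EGR3, an EGR gene induced by growth factors and calcium signals, was near the limit of counting except in Nutlin. Its reads were 8, 3 and 3 in DMSO, 19, 35 and 23 in Nutlin, 4, 2 and 4 in PD24, 1, 1 and 3 in PD30, 3, 7 and 8 in N+PD24 and 0, 0 and 1 in N+PD30. Nutlin libraries lay above all others, at 0.623, 1.17 and 0.848 CPM. Summed over libraries, the ratio of Nutlin to DMSO was 5.82 (95% exact interval 3.27 to 11.1, counting error only). The edgeR test gave 2.64 ± 0.43 on the log2 scale (adjusted p = 0.000598). N+PD30 had 1 read in all against 77 in Nutlin, a ratio of Nutlin to N+PD30 of 55.4 (interval 9.66 to 2217; edgeR adjusted p = 0.000163). N+PD24, with 18 reads, was lower than Nutlin too (ratio of Nutlin to N+PD24 4.34, interval 2.57 to 7.71; limma adjusted p = 0.0039).

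EGR2, which is needed for myelination, passed the low-count filter in none of the 11 fits. Its reads were 9, 5 and 5 in DMSO, 6, 1 and 5 in PD24, 2, 2 and 0 in PD30, 5, 5 and 1 in Nutlin, 6, 4 and 7 in N+PD24 and 8, 4 and 11 in N+PD30. A count of 3 corresponds to 0.0746 to 0.236 CPM per library, so most of these values are at or close to what counting can resolve. The widest gap was N+PD30 over PD30, 23 reads against 4 in smaller libraries, a ratio of 9.13 (95% exact interval 3.12 to 36.3).

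The make-up of each family, as shares of the summed level per kilobase, moved most in the Jun and EGR families. FOSL1 made up 80.1% to 89.1% of the Fos family in every condition on average. JUN made up 64.3% ± 8.24 (SD, n = 3) of the Jun family in DMSO, 73.1% ± 6.57 in N+PD24 and 32.0% ± 2.15 in N+PD30. The share of JUND was 12.9% ± 1.36 in DMSO, 5.54% ± 0.483 in PD24, 29.0% ± 1.54 in PD30, 14.2% ± 2.89 in Nutlin, 6.48% ± 1.19 in N+PD24 and 36.6% ± 6.69 in N+PD30. Both conditions with PD0332991 until harvest had JUND shares above all libraries of the other 4 conditions. Within the EGR family, EGR3 made up 38.7% ± 13.6 in Nutlin, against 3.95% ± 1.19 in DMSO and 0.631% ± 1.09 in N+PD30. No test was run on shares.

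The effect of Nutlin was also measured in cells kept on PD0332991. In N+PD30 against PD30, 2 of 8 members tested were higher (FOSL1, JUND) and 0 lower, against 14.5% of all genes called by edgeR in either direction, 8.84% higher and 5.64% lower. No member was lower at an unadjusted p under 0.05 either. With the replicate block 6 of 8 were called, all higher. They included FOSB (log2 fold change 0.66, edgeR adjusted p = 0.0307), FOSL2 (0.31, adjusted p = 0.0288) and JUNB (1.09, adjusted p = 0.0225) besides EGR1. Pairing was not clear here: same-numbered libraries had r of 0.204, 0.334 and 0.687, and differently numbered ones reached 0.452. DESeq2 called 4. The block raised the calls over all genes as well, from 2183 to 4375. Of those 2183 calls 61.1% were higher, and 43.8% of the calls with total-count scaling. The interaction term over the 12 libraries of DMSO, Nutlin, PD30 and N+PD30 tests the difference itself. It passed for 6 of 9 members, all positive (FOS, FOSL1, JUN, JUNB, JUND, EGR1), against 19.8% of all genes called by edgeR and 12.8% with a positive term (7.03% negative). The terms were 2.56 ± 0.53 for FOS, 2.29 ± 0.49 for EGR1, 1.85 ± 0.37 for JUND, 1.81 ± 0.60 for JUNB, 1.20 ± 0.29 for FOSL1 and 1.20 ± 0.32 for JUN on the log2 scale. Their edgeR adjusted p ran from 0.00356 (JUND) to 0.0493 (JUNB). Genes within 2 percentage points of the GC content of JUND had a median term of 0.71 (94 genes), and those near JUNB 0.43 (719 genes). Over all genes the median term was 0.06. The part of GC content in these terms was not tested. The term of EGR3 was the farthest from 0, at -3.94 ± 1.32, and just missed the threshold (edgeR adjusted p = 0.0511), passing with DESeq2 size factors (adjusted p = 0.0477). That of FOSB was -1.16 ± 0.47 (edgeR adjusted p = 0.103). The JUNB term was lost with DESeq2 size factors (adjusted p = 0.0522), with DESeq2 itself (adjusted p = 0.0695), with the block and without any of 8 of the 12 libraries, and the JUN term without PD30 replicate 1 (adjusted p = 0.0515). For FOS and EGR1, PD30 without Nutlin was already at 0.439 ± 0.0119 and 0.413 ± 0.136 CPM (SD, n = 3), beside 0.349 ± 0.123 and 0.785 ± 0.258 CPM in Nutlin alone.

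On the 24 h schedule no member's response to Nutlin passed the test of a difference from that in DMSO. In N+PD24 against PD24, 1 of 8 members was higher (FOSB) and 3 lower (FOSL2, JUN, JUND), against 37.2% of all genes called by limma (17.6% higher, 19.6% lower). Of those calls 47.3% were higher (31.6% with total-count scaling). JUNB had a value of -1.55 ± 0.53 (limma adjusted p = 0.0675). It was called with total-count scaling (adjusted p = 0.0240), without the filter (adjusted p = 0.0221) and by edgeR on recovered reads (adjusted p = 0.0125). With the replicate block limma gave JUNB an adjusted p of 0.304 and edgeR on recovered reads 0.00329, which made 5 members called. The interaction term for Nutlin with PD24 passed for 0 of 9 members, against 1.47% of all genes (0.825% positive, 0.643% negative). At an unadjusted p under 0.05 it had 3 members (FOS, EGR1, EGR3), and edgeR on the recovered reads called 0. The largest positive term was that of FOS, 0.97 ± 0.23 (limma adjusted p = 0.0532; 0.0343 with a pseudocount of 1). The log2(CPM + 0.5) scale of these terms understates changes of low genes such as FOS and EGR1. Their size therefore cannot be set against that of the PD30 terms, which come from counts.

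**Figure D1:**
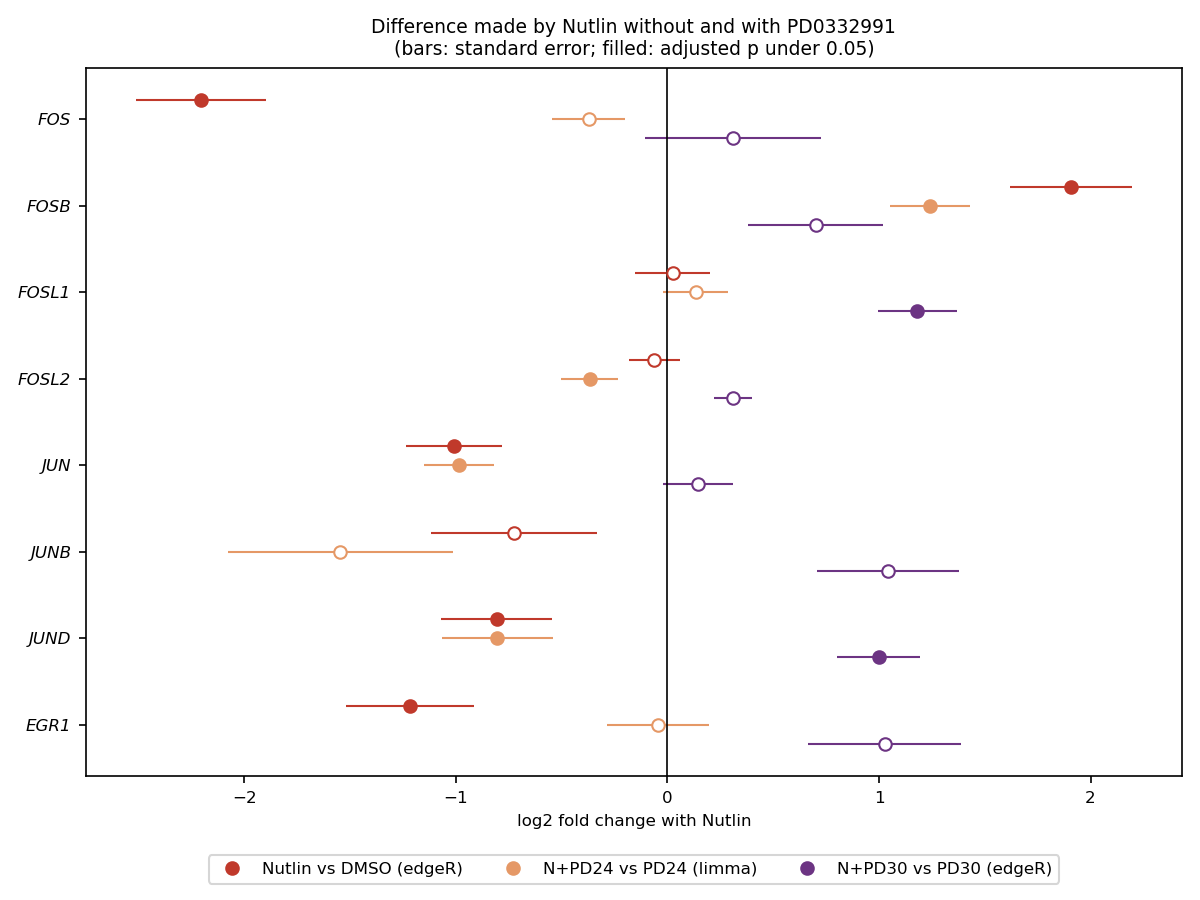
Log2 fold change with Nutlin (x axis) for the 8 members tested in all 3 comparisons, without PD0332991 and with either schedule; bars are standard errors and filled points passed an adjusted p under 0.05. JUN and JUND fall with Nutlin alone and with PD24 but not with PD30, and FOSL1 passes the test only in the PD30 comparison.

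Both combinations were also compared with Nutlin alone. In N+PD30 against Nutlin, 2 of 9 members were higher (JUNB, JUND) and 2 lower (FOSB, EGR3), against 49% of all genes called by edgeR (24.3% higher, 24.7% lower). In N+PD24 against Nutlin, 1 of 9 was higher (JUN) and 1 lower (EGR3), against 33.9% of all genes called by limma (17.1% higher, 16.8% lower). Of those calls 50.5% were higher (40.1% with total-count scaling). The block, which the pairing check supported, raised that count to 6 of 9 with FOSL1 (0.32, adjusted p = 0.00216), FOSL2 (-0.32, adjusted p = 0.00316) and JUND (-0.56, adjusted p = 0.00188) besides FOSB. It raised the count over all genes from 5464 to 8561.

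The 24 h and 30 h schedules of PD0332991 differed in several members. In PD24 against PD30, 4 of 8 members were higher (FOSB, FOSL1, JUN, JUNB) and 1 lower (JUND), against 25.2% of all genes called by edgeR (12.9% higher, 12.2% lower). The members' median was 0.95 on the log2 scale and that of all genes 0.02. FOSB was higher by 1.45 ± 0.20 (edgeR adjusted p = 0.00132). With Nutlin in both arms, N+PD24 against N+PD30, 2 of 8 were higher (FOSB, JUN) and 3 lower (FOSL2, JUNB, JUND), against 32% of all genes called by limma (16.4% higher, 15.5% lower). Of those calls 51.4% were higher (39.1% with total-count scaling). FOSB was higher there by 2.04 ± 0.28 (limma adjusted p = 0.000701). FOSB and JUN were thus higher, and JUND lower, on the 24 h schedule in both settings, which share no library. JUNB was higher on the 24 h schedule without Nutlin and lower with it, but that reversal was not tested as such. With Nutlin HOOK2, which shares exon sequence with JUNB, was lower too, and its part in the JUNB value was not tested. FOSL1 had only 0.12 ± 0.19 with Nutlin (limma adjusted p = 0.660). The 24 h and 30 h schedules differ both in the time with the drug and in its presence at harvest, which cannot be told apart.

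**Figure D2:**
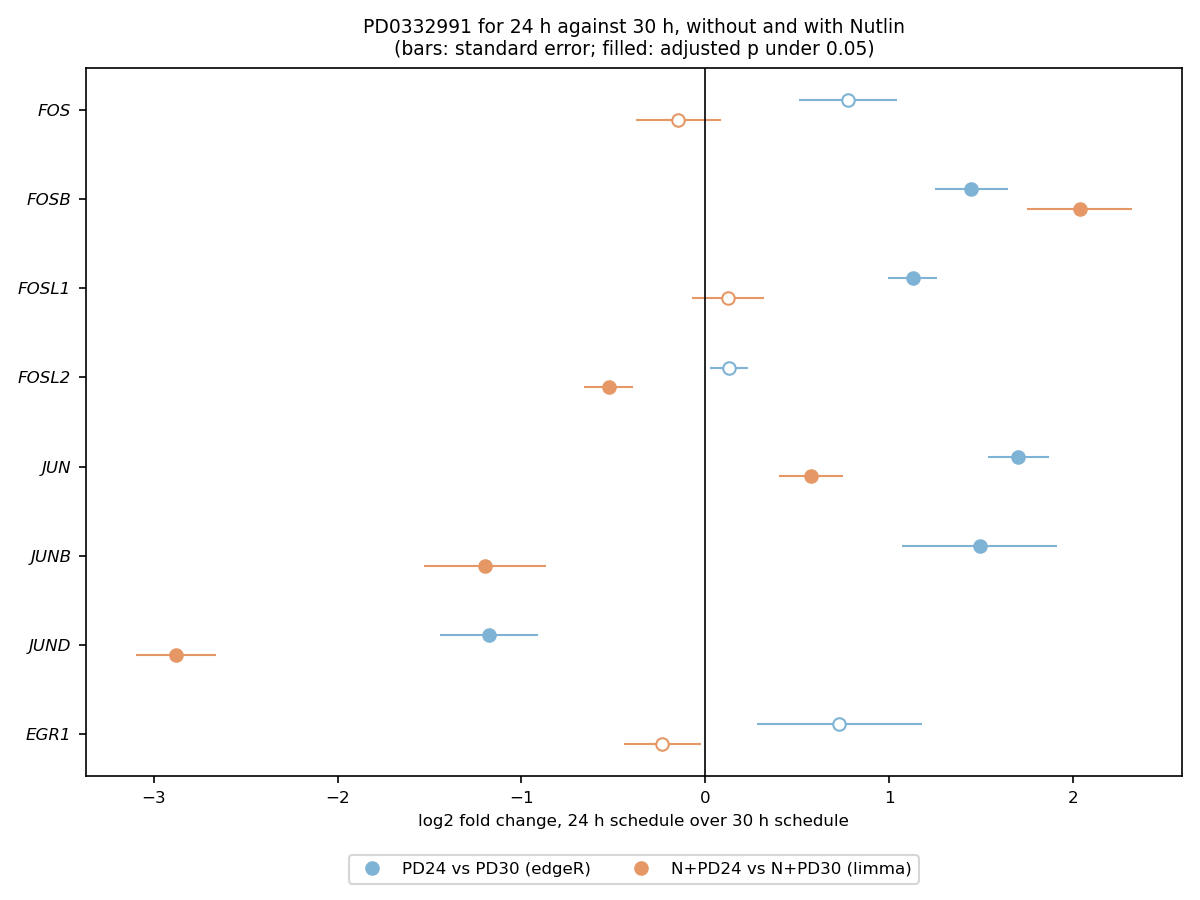
Log2 fold change of the 24 h over the 30 h schedule of PD0332991 (x axis) for 8 members, without Nutlin and with Nutlin in both arms; bars are standard errors and filled points passed an adjusted p under 0.05. FOSB and JUN lie right of 0 and JUND left of 0 in both comparisons, and JUNB changes side.

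Genes known as AP-1 targets in other cells, among them matrix proteases and their inhibitors, were compared between schedules. In PD24 against PD30, 10 of 16 tested were higher and 1 lower, beside 12.9% and 12.2% of all genes, with a median of 1.10 on the log2 scale against 0.02 over all genes. In N+PD24 against N+PD30, 11 of 17 were higher and 1 lower, beside 16.4% and 15.5% of all genes, with a median of 0.99 against 0.02. VEGFA was lower in both (log2 fold change -1.21 ± 0.14, edgeR adjusted p = 0.000611, and -0.68 ± 0.18, limma adjusted p = 0.0175). Against DMSO, 11 of 16 targets were higher in PD24 and 0 lower (17.5% and 20.8% of all genes). Of the AP-1 members, FOSB and JUN rose there and FOS fell. In PD30 4 targets were higher and 4 lower (22.9% and 25.4% of all genes), led by LIF (1.21) and ITGA2 (-1.05). FOS, FOSL1 and JUN fell there. Nutlin alone raised 3 of 16 and lowered 0 (26.6% and 28% of all genes). In N+PD30 against Nutlin, 2 were higher and 6 lower (IL8, -1.62), beside 24.3% and 24.7% of all genes. Whether AP-1 proteins took part in these changes was not tested.

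**Figure D3:**
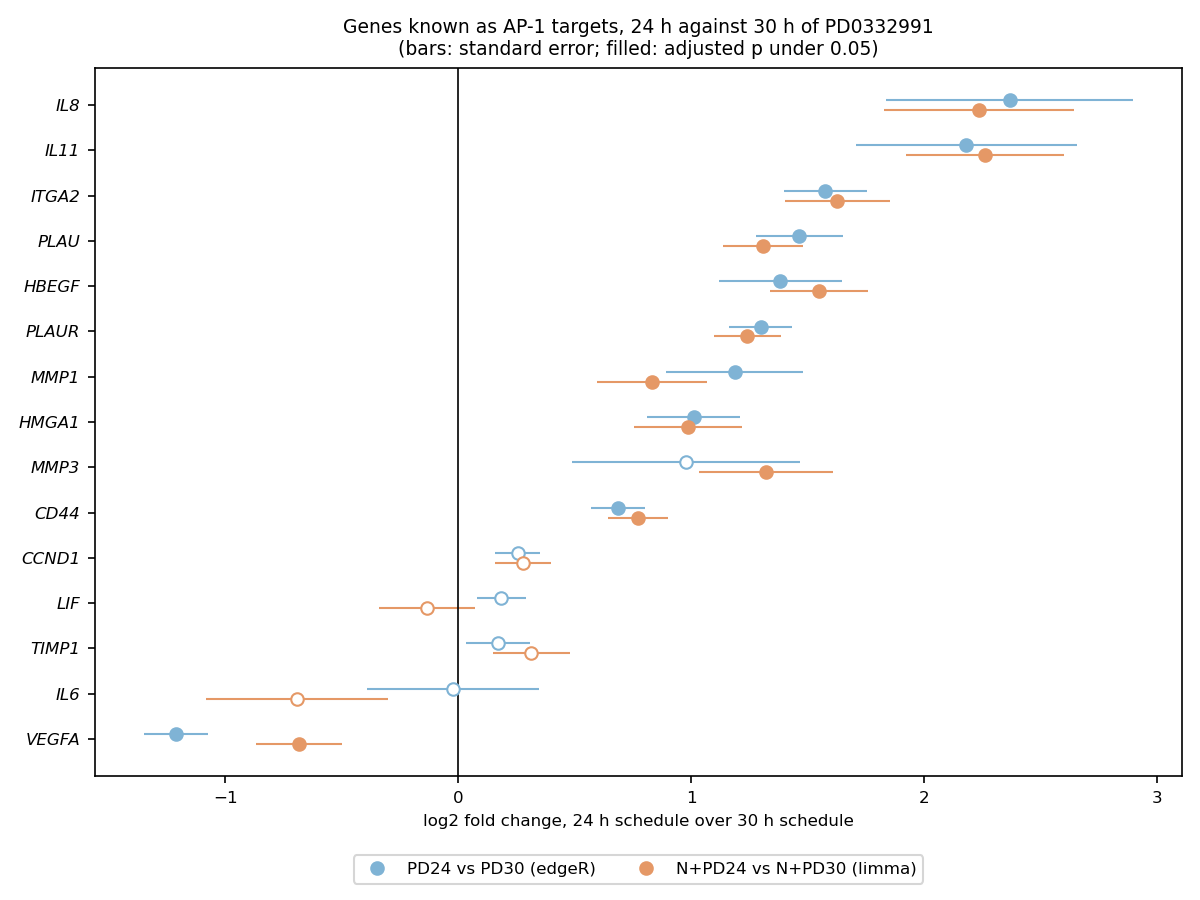
Log2 fold change of the 24 h over the 30 h schedule (x axis) for 15 genes known as AP-1 targets, of those tested in both comparisons; bars are standard errors and filled points passed an adjusted p under 0.05. VEGFA lies left of 0 in both, at -1.21 and -0.68.

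Upstream of the group, 24 genes of the ERK and JNK cascade were all tested. Nutlin raised 3 and lowered 8 of them, PD24 raised 3 and lowered 7, and PD30 raised 2 and lowered 6, each against DMSO. Of all genes, 54.6%, 38.3% and 48.3% were called in these comparisons. PDGFRA, a receptor for platelet-derived growth factor, fell most in all 3, by 2.03 ± 0.21, 2.02 ± 0.19 and 1.93 ± 0.16 on the log2 scale (edgeR adjusted p = 3.6e-05, 6.75e-05 and 1.15e-05). In PD24 against PD30 only 1 cascade gene passed, FGFR1 (0.70), beside 25.2% of all genes. SRF and 6 cofactors gave 4 lower and 0 higher with Nutlin, led by MKL2 (-0.93), beside 28% and 26.6% of all genes. SRF itself, the factor that binds CArG boxes, fell by 0.46 ± 0.11 in Nutlin (edgeR adjusted p = 0.00609) and rose by 0.52 ± 0.11 in PD30 (edgeR adjusted p = 0.0029), where FOS and EGR1 were low in both.

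Of 9 ERK feedback genes, the phosphatases and Sprouty proteins that ERK signalling switches on, Nutlin lowered 6 and raised 0, beside 28% of all genes lower and 26.6% higher. SPRED1 fell most, by 1.16 ± 0.12 on the log2 scale (edgeR adjusted p = 4.19e-05). PD24 raised 3 and lowered 1, and PD30 raised 2 and lowered 1, beside 38.3% and 48.3% of all genes called. SPRY1 fell in both, by 1.27 ± 0.26 and 1.46 ± 0.20 (edgeR adjusted p = 0.00514 and 0.000271), and DUSP1 rose in both, by 1.16 ± 0.17 and 0.68 ± 0.15 (edgeR adjusted p = 0.000785 and 0.00396).

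Other immediate-early genes were called in both directions. With Nutlin 5 of 23 tested were higher and 10 lower, beside 26.6% and 28% of all genes. BTG2, which is also a p53 target, rose by 2.51 ± 0.13 on the log2 scale (edgeR adjusted p = 9.14e-07) and MYC fell by 1.85 ± 0.21 (edgeR adjusted p = 6.45e-05). PD24 raised 10 of 22 and lowered 4 (17.5% and 20.8% of all genes), led by RHOB (1.44) and BTG2 (-1.75). PD30 raised 5 and lowered 10 (22.9% and 25.4% of all genes), led by SGK1 (1.06) and the factor gene KLF2 (-1.95). In PD24 against PD30, 10 of 22 were higher and 2 lower (12.9% and 12.2% of all genes), led by RHOB (1.91) and NR4A2 (-0.95).

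Among partners of the group, NAB2, a repressor that EGR proteins induce and that binds them, fell by 2.25 ± 0.19 on the log2 scale in Nutlin (edgeR adjusted p = 9.97e-06). Both EGR cofactors tested were lower there, beside 28% of all genes. NAB2 was higher in N+PD30 than in Nutlin by 1.31 ± 0.24 (edgeR adjusted p = 0.00111). Of 12 AP-1 partners from the ATF, BATF and MAF families tested, 2 were higher and 5 lower in Nutlin than in DMSO (26.6% and 28% of all genes), led by MAFK (0.98) and MAF (-1.26). In N+PD30 against Nutlin 8 of 12 were higher and 0 lower, beside 24.3% and 24.7% of all genes. ATF4, the factor of the integrated stress response, led them at 1.81 ± 0.15 (edgeR adjusted p = 4.33e-06), and it was lower in N+PD24 than in N+PD30 (-1.71 ± 0.16, limma adjusted p = 0.000119). JUND had the same signs in both.

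Over the 18 libraries, the genes whose log2 levels were most like JUND were NFKBIB, MAF1 and SGSM2 (Pearson r 0.976, 0.969 and 0.953, among 13559 genes with a mean of at least 1 CPM). JUN was most like RASA3 (0.930), TTLL12 and CCDC86, FOS most like MESDC2 (0.888), TP73-AS1 and C1orf135, and EGR1 most like FLI1 (0.876), NDE1 and BTG1. FOSL1 was most like RELT (0.841) and S100A16, FOSL2 most like UPF1 (0.913), PANK4 and C19orf52, and JUNB most like MAP1S (0.917), REXO1 and TRIM8. For FOSB (FLJ35946, 0.927), EGR3 (PAN3-AS1, 0.927) and EGR2 (TRAF4, 0.720) counts were low in some conditions. The libraries share conditions and replicate numbers, so these values describe likeness only.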

How the data were processed

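Per the labels and the study's methods, RNA of SJSA cells was sequenced as single reads of 50 bases, aligned by the authors with TopHat on top of Bowtie 2 (build hg19), and HTSeq 0.6.0 gave the reads per gene. For 5 conditions the deposited values are whole-number counts per gene, although the deposit calls them variance-stabilized. For N+PD24 the deposited values are a signal, counts divided by size factors by the authors. They gave back whole reads for all values (tolerance 0.001), and each library was rescaled by its own total. The authors' own comparison of Nutlin with DMSO (base means, fold changes, p-values) and their normalized copies were not used. In 28 rows a gene name had turned into a date.

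Counts were tested with edgeR 4.0.16 (quasi-likelihood, TMM scaling, filterByExpr) in R 4.3.3. The SE printed with an edgeR value is its absolute log2 fold change divided by the square root of its F statistic. That is an approximation, least exact for genes with few reads. Comparisons with N+PD24 were tested with limma 3.58.1 (trend, robust) on log2(TMM-scaled CPM + 0.5), for genes at 0.3 CPM or more in at least 3 libraries. Called means a Benjamini-Hochberg adjusted p under 0.05 over all genes tested. All tests are two-sided. The scripts were tested on simulated data. Depth was 12704845 to 40231041 counts per library. Intervals and the floor of 3 counts cover counting error only.

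The members and lists were chosen with earlier results of these data known. Named were all members, the called gene with the largest rise and with the largest fall of each list and comparison, and the 3 genes most like each member. SRF in Nutlin and ALB were named after their values were seen. Some genes that this rule names are not reported here. From the replicate numbers in the titles, same-numbered libraries deviated together in all 3 pairs for several comparisons. The lowest r was 0.450 for N+PD24 and Nutlin, 0.304 for PD24 and PD30, 0.211 for N+PD24 and PD24 and 0.204 for N+PD30 and PD30. The highest r between differently numbered libraries was 0.0969, 0.127, 0.182 and 0.452 in that order, so the last shows no clear pairing. Blocked values stand beside these results where a call changed. Alternatives were other scalings, DESeq2 1.42.0, other filters, pseudocounts and samples in the fit, a fold threshold, the replicate block and leaving out each library. The fit of edgeR on recovered reads with the block was chosen after seeing the data.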

Additional observations from a re-analysis of the deposited data

Results flagged for a closer look

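The effect of Nutlin differed with and without PD30 for 6 members, by the interaction term over DMSO, Nutlin, PD30 and N+PD30 (edgeR, log2 scale). The terms were 2.56 for FOS, 2.29 for EGR1, 1.85 for JUND, 1.81 for JUNB, 1.20 for FOSL1 and 1.20 for JUN. All 6 were positive: Nutlin made less of a fall, or more of a rise, in cells kept on PD0332991 than in DMSO. EGR3 and FOSB had negative terms that did not pass (-3.94 and -1.16, edgeR adjusted p = 0.0511 and 0.103). EGR3 passed with DESeq2 size factors (adjusted p = 0.0477) and FOSB with the replicate block (adjusted p = 0.0233). Of all genes 19.8% were called, 12.8% with a positive and 7.03% with a negative term. Genes with a GC content like that of JUND or JUNB had positive median terms too (0.71 and 0.43). The JUNB term was lost in several alternative fits and the JUN term without PD30 replicate 1. FOS and EGR1 were already low in PD30 without Nutlin.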

How the results depend on the processing

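Each called member value was refitted under several settings, and each refit was counted separately, with the fold threshold left out of the count. Under other processing 237 of 246 refits kept direction and call and 9 lost the call. With a library left out 244 of 285 refits kept the call and 41 lost it. All lost calls were of FOSL2, JUN, JUNB or JUND, some of them in several settings. Direction reversed for no called value. Among refits of values not called, 27 of 303 passed under other processing. Total-count scaling turned FOSL1 in Nutlin against DMSO to -0.096, EGR1 in N+PD30 against Nutlin to 0.034, JUNB in N+PD24 against Nutlin to -0.039 and FOSL1 in N+PD24 against PD24 to -0.016. Without the filter on low values the first 3 became -0.012, 0.0072 and -0.0041, and the block gave 0.040 for EGR1 in N+PD30 against Nutlin. A fold threshold of 1 on the log2 scale left 2 members called in PD30 against DMSO, 1 in N+PD30 against PD30, 0 in N+PD24 against Nutlin, 1 in N+PD24 against PD24 and 3 in N+PD24 against N+PD30. In N+PD30 against PD30, DESeq2 and the fit without a filter each called 4 members and the replicate block 6. In N+PD24 against Nutlin the block called 6, also with edgeR on recovered reads. In the interaction of Nutlin with PD24, a pseudocount of 1 and the block each called 1 (FOS). The cause was not tested.

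The fold threshold lowered calls over all genes to 3277 from 8614 (Nutlin against DMSO), 1898 from 5781 (PD24 against DMSO), 2305 from 7307 (PD30 against DMSO), 3510 from 7711 (N+PD30 against Nutlin), 555 from 2183 (N+PD30 against PD30), 1137 from 3816 (PD24 against PD30), 1410 from 5464 (N+PD24 against Nutlin), 1752 from 5866 (N+PD24 against PD24), 1481 from 5063 (N+PD24 against N+PD30) and 1647 from 3193 (interaction with PD30). The block raised them to 4375 in N+PD30 against PD30, 6107 in PD24 against PD30 and 8561 in N+PD24 against Nutlin (8378 with edgeR), and from 242 to 531 in the interaction with PD24, where edgeR on recovered reads gave 116.

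Where same-numbered libraries did not deviate together, the replicate block called 6 members in PD24 against DMSO, adding JUNB (0.98, edgeR adjusted p = 0.00203) and JUND (-0.55, adjusted p = 0.0364). Over all genes the block raised the calls there from 5781 to 6793. The block ended the call of JUN in N+PD24 against N+PD30 (limma adjusted p = 0.0506) and of the JUNB interaction with PD30 (edgeR adjusted p = 0.0588) and added FOSB to that interaction (adjusted p = 0.0233). Over all genes, calls went from 5063 to 5346 in the first and from 3193 to 4130 in the second. The lowest same-number r was -0.278 (Nutlin and DMSO), 0.0923 (PD24 and DMSO), -0.121 (PD30 and DMSO), -0.110 (N+PD30 and Nutlin) and 0.0511 (N+PD24 and N+PD30).

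With single libraries left out, members called ran from 0 to 3 in N+PD24 against Nutlin, 2 to 5 in N+PD24 against PD24 and 2 to 4 in N+PD24 against N+PD30, and calls over all genes from 583 to 3384 in N+PD30 against PD30, 2178 to 4117 in PD24 against PD30, 3411 to 4925 in N+PD24 against PD24, 2979 to 4885 in N+PD24 against N+PD30 and 109 to 234 in the interaction with PD24. Values not called changed sign within these ranges: in Nutlin against DMSO FOSL1 -0.20 to 0.18 and FOSL2 -0.14 to 0.064, in PD24 against DMSO FOSL2 -0.11 to 0.083, in PD30 against DMSO FOSB -0.29 to 0.015 and JUNB -0.95 to 0.085, in N+PD30 against Nutlin FOSL1 -0.0080 to 0.41, JUN -0.022 to 0.49 and EGR1 -0.29 to 0.27, in N+PD30 against PD30 FOS -0.12 to 0.59, in N+PD24 against Nutlin JUNB -0.37 to 0.30, in N+PD24 against PD24 FOSL1 -0.040 to 0.30 and EGR1 -0.29 to 0.19, in N+PD24 against N+PD30 FOS -0.27 to 0.10 and FOSL1 -0.036 to 0.31, and in the interaction with PD24 FOSL1 -0.047 to 0.32, JUN -0.15 to 0.32 and JUND -0.33 to 0.17. Depth limits FOS, EGR1, EGR2 and EGR3 most.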

Other observations

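Growth factor ligands act upstream of the immediate-early genes. Of 9 tested, 3 were higher and 1 lower in PD24 than in PD30 and 5 were higher and 1 lower in N+PD24 than in N+PD30, beside 25.2% and 32% of all genes called in either direction. HBEGF, an EGF receptor ligand that is also on the list of AP-1 targets, led both, at 1.38 ± 0.26 on the log2 scale (SE; edgeR adjusted p = 0.00574) and 1.55 ± 0.21 (limma adjusted p = 0.000633). VEGFA was the ligand that was lower in both. TGFA, another EGF receptor ligand, rose by 1.93 ± 0.13 in Nutlin against DMSO (edgeR adjusted p = 3.97e-06) and by 1.28 ± 0.19 in N+PD24 against PD24 (limma adjusted p = 0.000317).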
